A study of Mus musculus with 4 samples.

Results

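Secreted inhibitors of Wnt signalling were followed across the cell classes of the embryonic mouse head: Sfrp1, Sfrp2, Sfrp5, Frzb, Wif1, Dkk1, Dkk2, Dkk3 and Notum. These 9 are among the 20719 genes listed in any of the 4 libraries and were chosen by name, with earlier results of these data known. The study compared single cells of Apcdd1+/- and wild-type (WT) mouse embryos at E10.5 of gestation, with 2 libraries labelled Apcdd1+/- and 2 labelled WT. The labels call the tissue embryonic brain, and the protocol states that whole heads were dissected, left in preservation solution overnight, digested enzymatically and sorted for live cells before droplet libraries were made. Apcdd1 encodes a membrane protein that binds Wnts and their co-receptors and inhibits the pathway. By its notation the Apcdd1+/- label means 1 altered copy of the gene. Neither the kind of allele, the strain, the number of embryos in a library nor its litter is given. All 4 libraries share age, tissue and protocol.

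Wnt ligands are lipid-modified secreted proteins that bind frizzled receptors and the co-receptors Lrp5 and Lrp6, which stabilises β-catenin and turns on targets through Tcf and Lef factors. In the early head the pathway patterns the neural tube from front to back, and high activity is incompatible with forebrain identity. Secreted inhibitors act outside the cell. The Sfrp proteins and Frzb carry a frizzled-like domain that binds Wnts, Wif1 binds Wnts through a domain of another family, Dkk1 and Dkk2 bind Lrp5 and Lrp6, and Notum is a hydrolase that removes the lipid from Wnts. Dkk1 is required for head formation in the mouse. Dkk2 can act as an activator or an inhibitor depending on the co-factors present, and Dkk3 is a divergent relative whose place in Wnt signalling is less settled.

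The genes lie apart from each other in the mm10 genome, so none shares its exons with another member. Sfrp1 is at chr8:23411502-23449632 on the plus strand and Sfrp2 at chr3:83766321-83774316 on the plus strand, each with 3 exons. Dkk2, at chr3:132085292-132180304 on the plus strand, and Dkk1, at chr19:30545863-30549665 on the minus strand, have 4 exons each. Frzb is at chr2:80411970-80447625 on the minus strand with 6 exons, and Dkk3 at chr7:112116017-112159057 on the minus strand with 8. Wif1 is at chr10:121033960-121100650 on the plus strand with 10 exons, Notum at chr11:120653788-120661175 on the minus strand with 12, and Sfrp5 at chr19:42197971-42202252 on the minus strand with 3. For 6 of the 9 members the 250 bases before the RefSeq gene start (GRCm38.p6) could be read. The Dkk2 window, chr3:132085042-132085291 on the plus strand, is shown because Dkk2 was, with Notum, the member with the largest difference of 1 class from the others; capitals mark TATAAA, the TATA-box letters, which were found on either strand in 12.4% of 32851 such windows. Stretches of 30 bases follow that hold CTTTGA, the core letters bound by Tcf and Lef factors, or TCAAAG, the same letters on the opposite strand, in capitals. CTTTGA was present on either strand in the windows of 2 of the 6 members, Dkk1 and Frzb, and in 13.8% of all windows. The Dkk1 and Frzb windows overlap the gene coordinates given above by 169 and 229 of their 250 bases, since the RefSeq start lies inside the annotated gene. The first Dkk1 stretch and the Frzb stretch are therefore inside the annotated gene, and the second Dkk1 stretch spans its start. A match of these letters describes the window and shows no binding.
Dkk2 promoter window, plus strand: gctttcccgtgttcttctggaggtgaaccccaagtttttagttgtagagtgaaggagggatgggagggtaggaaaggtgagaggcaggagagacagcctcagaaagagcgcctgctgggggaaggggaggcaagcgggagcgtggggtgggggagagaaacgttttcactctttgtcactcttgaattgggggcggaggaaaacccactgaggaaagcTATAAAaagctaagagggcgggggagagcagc
Dkk1 chr19:30549596-30549625, minus strand: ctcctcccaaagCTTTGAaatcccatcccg
Dkk1 chr19:30549653-30549682, minus strand: gaggggagagtgTCAAAGtcctccctgctt
Frzb chr2:80447474-80447503, minus strand: tcccctgaaaacTCAAAGccttctcggaag

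The libraries labelled Apcdd1+/- held 9735 and 5726 cell barcodes and the WT libraries 6491 and 3122, with 55393605 to 96822641 unique molecular identifiers (UMIs, counts of distinct mRNA molecules) per library. After cells with under 500 genes or at least 10% mitochondrial UMIs were left out, 24259 cells remained, with a median of 9118 and 8934.5 UMIs per cell in the Apcdd1+/- libraries and of 11506 and 17133.5 in the WT libraries. Cells were clustered on genes other than the 9 members into 27 classes, of which 23 could be named from marker genes; a name ending in "-like" rests on those markers only. No doublet caller was run. Of 25065 bead barcodes 100 occurred in 2 libraries, and the barcode list of Apcdd1+/- library 1 covers 3994 of its 9735 cells. The heads held neural progenitors, neurons, mesenchyme, ectoderm, blood and vessel cells, so the label embryonic brain covers more than brain. Apcdd1 itself, summed over all kept cells, stood at 77.4 and 49.5 CPM (counts per 1e6 UMIs) in the libraries labelled Apcdd1+/- and at 63.4 and 60.8 CPM in the WT libraries. The ranges overlapped, with a log2 difference of 0.08 (SE 0.23, adjusted p = 1.00 in edgeR's quasi-likelihood test), so the targeted gene did not show the label. The kind of allele is not given, so whether it would lower these UMIs is not known.

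Levels are given in CPM, the UMIs of a gene scaled to the total of a class in a library, with 1 library as 1 replicate. UMIs are counted without regard to transcript length and with unequal capture between genes, so levels are compared between classes for 1 gene and not between genes. The 22 classes that held 20 or more cells in all 4 libraries were each tested against the mean of the other classes with edgeR's quasi-likelihood test. The fit was blocked on library, with Benjamini-Hochberg adjustment over all genes. This mean of the other classes is a mean of log levels. Classes with low levels pull it down, so the log2 differences can exceed those read from mean CPM. The classes were built from other genes of the same cells, so the p-values take the classes as given. Sfrp1 and Sfrp2 gave 52908 and 21479 UMIs over all libraries, Frzb 4371, Dkk3 3290, Dkk2 3155, Dkk1 794, Notum 357 and Wif1 282. Sfrp5 gave 10 UMIs, was listed in 3 of the 4 libraries, passed no filter on low counts and was not tested; it was at 0 in every library in 20 of the 27 classes.

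**Figure D1:**
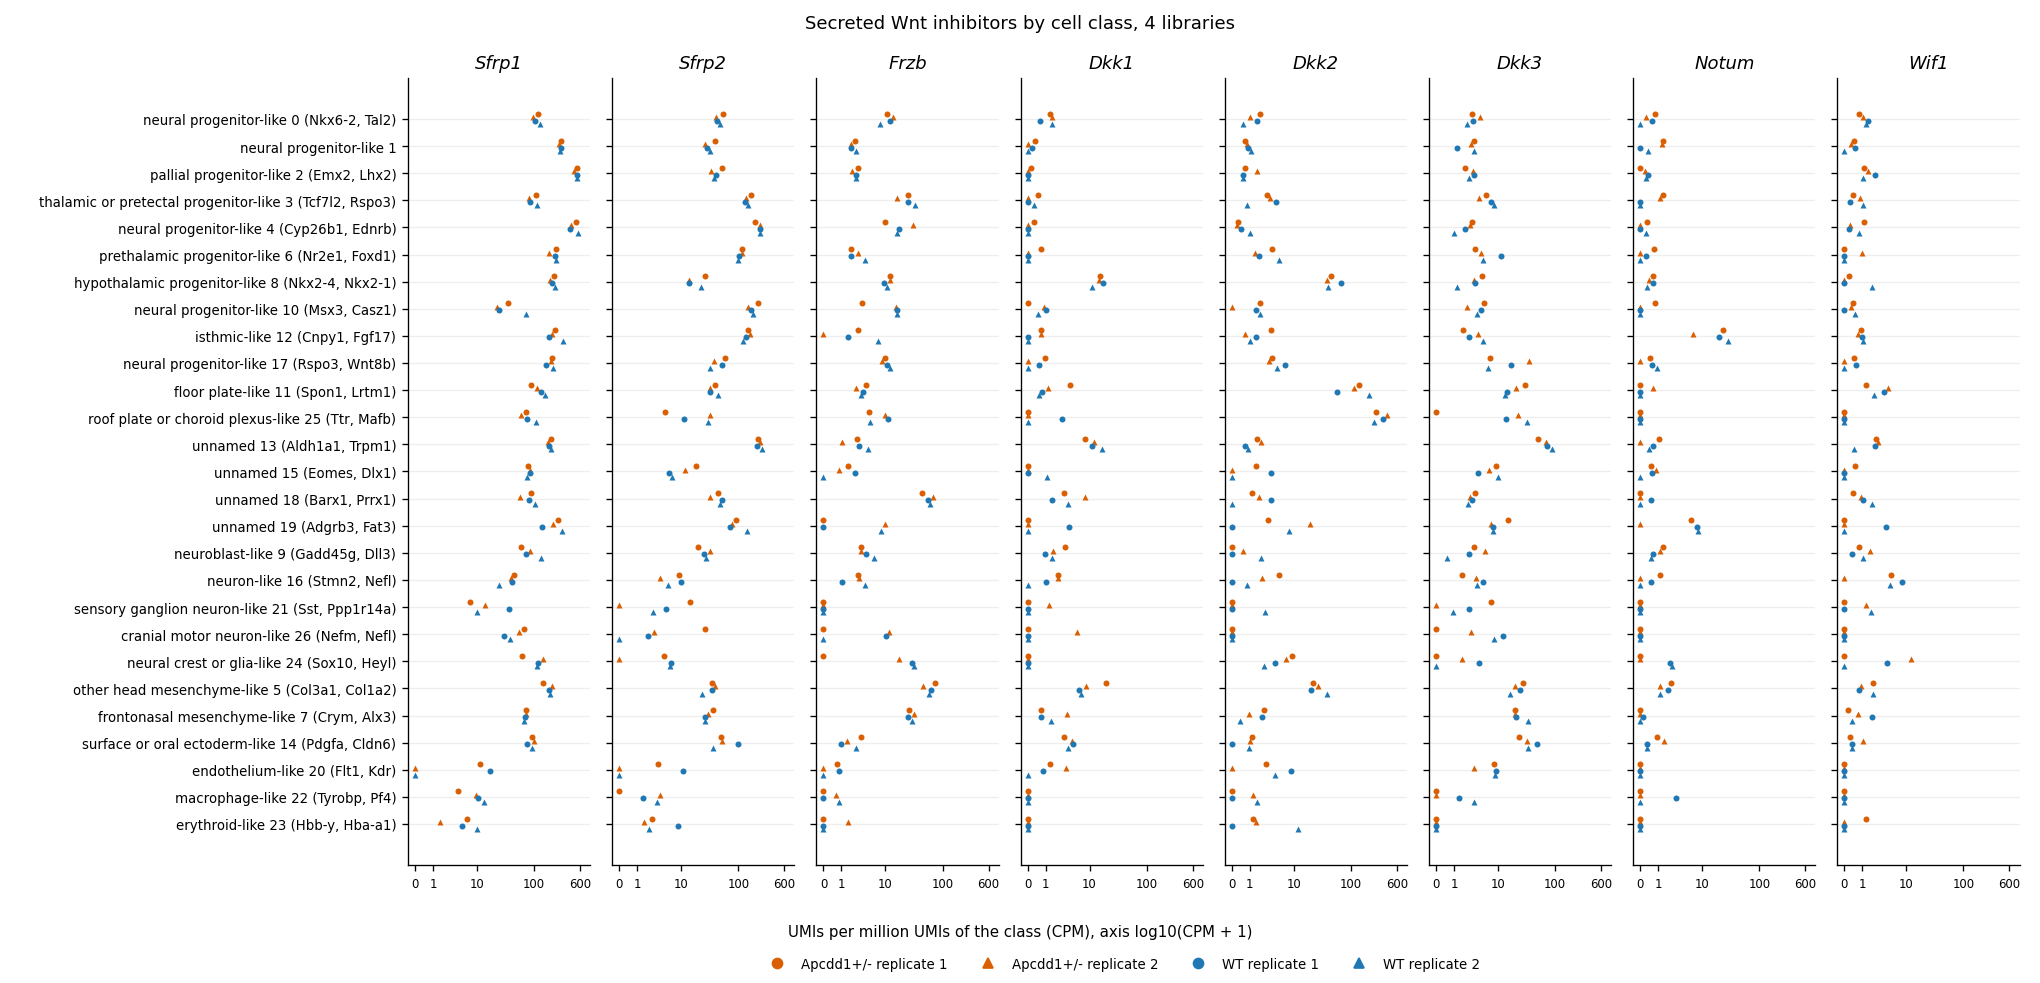
CPM of 8 members (panels; horizontal axis log10(CPM + 1), ticks in CPM) in 27 cell classes (vertical axis) in the 2 Apcdd1+/- libraries (orange) and the 2 WT libraries (blue), 1 symbol per library. Sfrp1 and Sfrp2 are spread over the neural progenitor classes, Frzb sits highest in mesenchyme, and Dkk2 and Notum each rise above the other classes in few places, Notum to a mean of 20.0 CPM in isthmic-like cells.

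Sfrp1 was highest in the forebrain. In pallial progenitor-like cells (led by Emx2 and Lhx2, the dorsal telencephalon that forms the cortex) it stood at 533.6 and 465.6 CPM in the Apcdd1+/- libraries and at 521.5 and 538.7 CPM in the WT libraries, a mean of 515 ± 33.6 CPM (SD, n = 4 libraries). Neural progenitors led by Cyp26b1 and Ednrb followed at 472 ± 77.8 CPM, and the ranges of the 2 classes overlapped. Against the mean of the other classes the log2 difference was 2.38 (SE 0.07, adjusted p = 4.84e-53) in pallial progenitor-like cells and 2.17 in the Cyp26b1-led progenitors. Isthmic-like, prethalamic and hypothalamic progenitor-like cells averaged 229, 219 and 207 CPM with overlapping ranges. Erythroid-like, endothelium-like and macrophage-like cells were lowest, at 5.80, 7.11 and 9.44 CPM. Among the neural progenitor classes those led by Msx3 and Casz1 were lowest, at 38.9 CPM (log2 −1.66), close to the 38.1 CPM of the neuron-like class led by Stmn2 and Nefl. Pallial progenitor-like cells were 7.10% of the kept cells and held 21.3% of all Sfrp1 UMIs.

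Sfrp2 had a different order of classes. Its highest level was in an unnamed class led by Aldh1a1 and Trpm1, whose other leading genes include Six6, Pmel and Pax2, known from the developing eye. There it stood at 216.7 and 236.5 CPM in the Apcdd1+/- libraries and at 211.2 and 252.6 CPM in the WT libraries, a mean of 229 ± 19.0 CPM (SD, n = 4 libraries). The Cyp26b1-led progenitors came next at 223 ± 20.0 CPM with an overlapping range, then the Msx3-led progenitors at 175 ± 27.4 CPM. Against the mean of the other classes these 3 classes differed by 2.53 (SE 0.09, adjusted p = 1.97e-44), 2.51 and 2.18 on the log2 scale. Thalamic or pretectal progenitor-like cells averaged 144 CPM and isthmic-like cells 140 CPM. Pallial progenitor-like cells, the leading class for Sfrp1, averaged 41.5 CPM of Sfrp2, and hypothalamic progenitor-like cells were lower than the other classes (log2 −1.17).

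Thus the Msx3-led progenitors had low Sfrp1 with high Sfrp2, pallial progenitor-like cells the reverse, and the Cyp26b1-led progenitors had both. Over the 22 tested classes the log levels of the pair had a Pearson correlation of 0.66, given as a description over classes that share 4 libraries and their depth. The 22 include erythroid-like (5.80 and 3.74 CPM) and macrophage-like cells (9.44 and 2.17 CPM), low for both genes. The value thus does not describe the progenitor classes alone. At single-cell level, after each cell was thinned to 4000 UMIs, 27.8% of the Cyp26b1-led progenitors had a UMI of both genes, against 28.7% from the product of the 2 shares. In the Aldh1a1-led class the values were 17.8% and 17.1%, and in pallial progenitor-like cells 12.4% and 11.7%. Other classes departed from the product in both directions, with 11.3% against 9.15% in thalamic or pretectal and 4.20% against 3.20% in hypothalamic progenitor-like cells, but 11.3% against 13.2% in prethalamic progenitor-like cells. These departures were not tested.

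**Figure D2:**
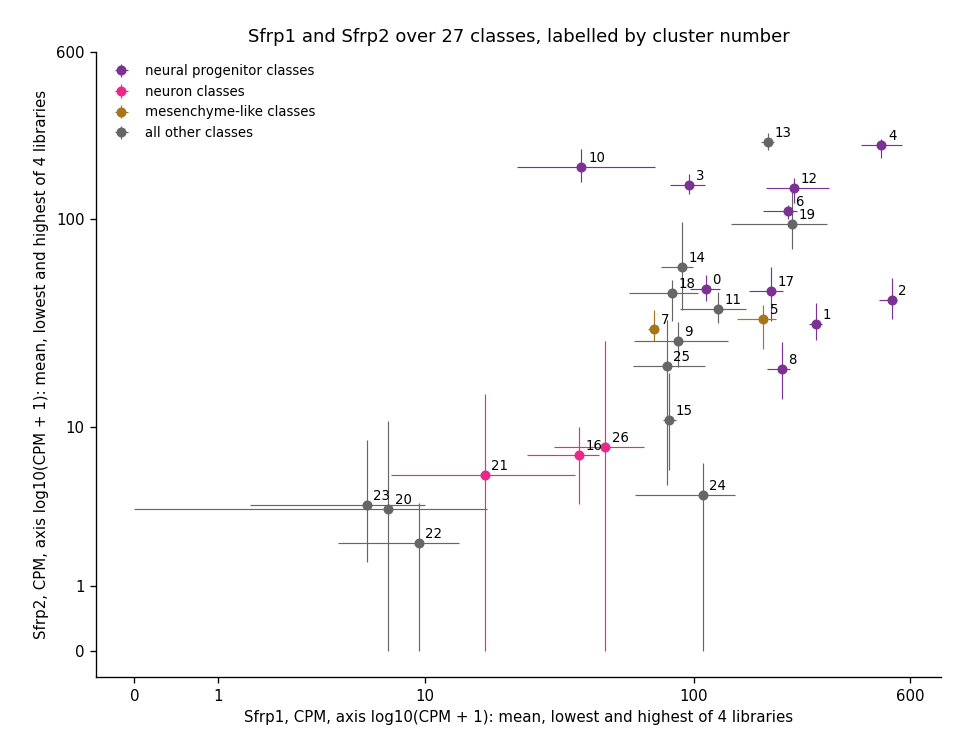
Sfrp1 against Sfrp2 in 27 classes, both axes log10(CPM + 1) with ticks in CPM; points are means and bars run from the lowest to the highest of 4 libraries, and the number beside a point is the class (2 pallial, 4 Cyp26b1-led, 10 Msx3-led, 13 Aldh1a1-led). Class 4 is high for both genes, class 10 has 38.9 CPM of Sfrp1 beside 175 CPM of Sfrp2, and blood and vessel classes lie at the lower left.

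Frzb, also called Sfrp3 and known from cartilage and limb mesenchyme, was highest outside the neural tube. In head mesenchyme-like cells led by Col3a1 and Col1a2 it stood at 74.4 and 46.3 CPM in the Apcdd1+/- libraries and at 63.2 and 58.7 CPM in the WT libraries, a mean of 60.6 ± 11.6 CPM (SD, n = 4 libraries). An unnamed class led by Barx1 and Prrx1, transcription factor genes of facial mesenchyme, averaged 58.0 ± 9.80 CPM, and the ranges of the 2 classes overlapped. Frontonasal mesenchyme-like cells were clear of both at 28.4 ± 2.90 CPM. The log2 differences from the mean of the other classes were 3.65 (SE 0.13, adjusted p = 1.07e-45), 3.68 and 2.69. Within the neural tube Frzb was not absent: thalamic or pretectal progenitor-like cells averaged 25.3 ± 6.82 CPM (log2 2.32) and the Cyp26b1-led progenitors 18.7 CPM (log2 1.81). Sensory ganglion neuron-like cells had no Frzb UMI in any library.

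Dkk1 was concentrated in few classes. Hypothalamic progenitor-like cells, led by Nkx2-4 and Nkx2-1, held 15.7 and 15.1 CPM in the Apcdd1+/- libraries and 17.9 and 11.2 CPM in the WT libraries, a mean of 15.0 ± 2.81 CPM (SD, n = 4 libraries). The Aldh1a1-led class averaged 12.1 CPM and head mesenchyme-like cells stood between 6.36 and 20.1 CPM, and the ranges of the 3 classes overlapped. Together these classes held 70.7% of all Dkk1 UMIs. Against the mean of the other classes the log2 differences were 4.54 (SE 0.28, adjusted p = 5.79e-26), 4.24 and 4.02. Some classes had no Dkk1 UMI, and such a fitted mean depends on how a 0 is handled, so the levels were also set against all other kept cells summed, a comparison added after the data were seen. On that scale hypothalamic progenitor-like cells were higher by 2.82 (SE 0.22), the Aldh1a1-led class by 2.38 and head mesenchyme-like cells by 2.30. Surface or oral ectoderm-like cells averaged 4.05 CPM, whereas pallial progenitor-like cells, the class richest in Sfrp1, averaged 0.03 CPM.

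Dkk2 was highest in classes of the neural tube midlines. Roof plate or choroid plexus-like cells, the dorsal midline, held 270.0 and 416.0 CPM in the Apcdd1+/- libraries and 345.8 and 246.7 CPM in the WT libraries, a mean of 320 ± 76.9 CPM (SD, n = 4 libraries). This class of 114 cells had 19 cells in its smallest library and was tested only when classes of at least 10 cells per library were let in, a choice made after the data were seen (log2 6.63, SE 0.22, adjusted p = 7.39e-51). It was 0.470% of the cells and held 12.7% of the Dkk2 UMIs. The floor plate-like class led by Spon1 and Lrtm1, the ventral midline, stood at 134.9 and 111.1 CPM in the Apcdd1+/- libraries and at 57.8 and 199.9 CPM in the WT libraries (log2 5.59, SE 0.16, adjusted p = 3.19e-52). At a finer clustering the level within the floor plate was uneven, since a floor plate-like class led by Spon1 and Fam183b averaged 386 CPM. Hypothalamic progenitor-like cells averaged 48.4 CPM (log2 4.28) and head mesenchyme-like cells 26.9 ± 8.37 CPM (log2 3.40). Erythroid-like cells also passed the test (log2 1.86, adjusted p = 0.0344), but on 13 UMIs in 4 of 133 cells, 10 of them in 1 cell of WT library 2; without that library the difference was −0.15 and its adjusted p 1.00.

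Dkk3 stood highest in the Aldh1a1-led class that also led for Sfrp2. It had 50.5 and 70.0 CPM there in the Apcdd1+/- libraries and 71.9 and 87.3 CPM in the WT libraries, a mean of 69.9 ± 15.1 CPM (SD, n = 4 libraries). That range was clear of the next class, surface or oral ectoderm-like cells at 35.0 ± 10.3 CPM. Frontonasal mesenchyme-like cells followed at 23.8 ± 6.82 CPM, head mesenchyme-like cells at 22.4 ± 4.99 CPM and the floor plate-like class at 19.9 ± 7.65 CPM, with overlapping ranges. The log2 difference of the Aldh1a1-led class was 3.91 (SE 0.17, adjusted p = 6.10e-38) from the mean of the other classes and 2.93 (SE 0.11) from all other kept cells. Roof plate or choroid plexus-like cells averaged 17.6 CPM and progenitors led by Rspo3 and Wnt8b 16.6 CPM. Mesenchyme was uneven, since the Barx1-led class averaged 2.948 CPM, and erythroid-like cells held none.

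Notum was concentrated in the isthmic-like class, led by Cnpy1 and Fgf17, which marks the midbrain-hindbrain boundary where Wnt1 and Fgf8 are made. It stood at 23.4 and 6.86 CPM there in the Apcdd1+/- libraries and at 20.5 and 29.4 CPM in the WT libraries, a mean of 20.0 ± 9.53 CPM (SD, n = 4 libraries). This class was 3.61% of the cells and held 56.6% of the Notum UMIs. Its log2 difference was 5.61 (SE 0.29, adjusted p = 2.93e-32) from the mean of the other classes and 5.24 (SE 0.35) from all other kept cells. Apcdd1+/- library 2 was the low one. An unnamed class of low depth led by Adgrb3 and Fat3 averaged 5.57 CPM and head mesenchyme-like cells 1.63 CPM, while 23 of the 27 classes averaged under 1 CPM.

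Wif1 was sparse everywhere. Its highest class, the neuron-like class led by Stmn2 and Nefl, had 5.16 and 0 CPM in the Apcdd1+/- libraries and 8.35 and 4.75 CPM in the WT libraries, a mean of 4.56 ± 3.44 CPM (SD, n = 4 libraries). The log2 difference was 2.84 (SE 0.46, adjusted p = 5.71e-08) from the mean of the other classes and 2.23 (SE 0.51) from all other kept cells, with 1 library at 0. At the finer clustering it was split between a neuron-like class led by Sst and Nefl, at a mean of 11.8 CPM, and a pigmented retina-like class at 10.7 CPM. The finer class that took the largest single part of the neuron-like class gave −3.38 (adjusted p = 1.00). That finer class has 209 cells and the neuron-like class 572, so it is a minority of it. The floor plate-like class averaged 2.84 CPM.

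Cells were also assigned 1 by 1 from UMIs of marker genes, without clustering, and the leading places were much the same. The pallial gate led for Sfrp1, at 447.3 and 415.9 CPM in the Apcdd1+/- libraries and 412.9 and 472.1 CPM in the WT libraries. The isthmic gate led for Notum, at 18.2 and 7.07 CPM in the Apcdd1+/- libraries and 20.2 and 15.1 CPM in the WT libraries, and the head mesenchyme gate for Frzb at 52.4 ± 4.62 CPM (SD, n = 4 libraries). The neural retina gate, for which the clustering gave no class of that name, led for Sfrp2 at 311 ± 22.4 CPM and for Dkk3 at 92.3 ± 22.2 CPM, each clear of the range of the next gate. For Dkk2 the floor plate gate (203 ± 33.2 CPM) and the roof plate gate (169 ± 81.6 CPM) came first with overlapping ranges. Among gates with at least 40 cells in every library, Dkk1 was highest in the neural retina gate (13.9 ± 6.28 CPM) and the hypothalamic gate (11.6 ± 7.23 CPM), whose ranges overlapped.

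Over the 8 tested members and 22 classes, 53 of 176 pairs (30.1%) were higher and 33 (18.8%) lower than the mean of the other classes; over all genes 23.6% of such pairs were higher and 14.9% lower. Against all other kept cells summed, 30 pairs (17.05%) were higher and 97 (55.1%) lower, where all genes gave 18.4% higher and 22.6% lower. The counts thus turn on what a class is set against. In 23 of the 176 pairs the comparison with the mean of classes gave no test for a low class, because another class held no UMI of the gene; these pairs are of Dkk1, Dkk3, Notum and Wif1, whose counts of lower classes were 0, 1, 0 and 0. Sfrp1, Sfrp2 and Frzb were each higher in 8 to 10 classes and lower in 8 to 10, Dkk1 higher in 8, Dkk3 in 6, Wif1 in 5, Dkk2 in 4 and Notum in 3. The summed mean level of the 9 genes was 717 CPM in the Cyp26b1-led progenitors, 564 CPM in pallial progenitor-like cells, 503 CPM in the Aldh1a1-led class and 445 CPM in the roof plate or choroid plexus-like class, against 14.7 CPM in macrophage-like and 14.03 CPM in erythroid-like cells. Head mesenchyme-like cells were the class with the most members at 10 CPM or more, 6 of the 9.

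Genes whose class pattern was most like a member's were taken from 6339 candidates by the Pearson correlation of log levels over the 22 classes, as a description over points that share libraries and depth. Nearest to Sfrp1 were Lrig1 (0.87), an inhibitor of growth factor receptors, 9430015G10Rik and E2f5 (0.86 each), and nearest to Sfrp2 were Ctcf (0.84), Mis12 and Hnrnpr (0.83 each). Frzb ran closest to Prrx2, Nkd2 and Mmp2 (0.81 each). Dkk2 ran closest to Lmx1a (0.73), Shh (0.72) and Foxa1 (0.71), a roof and floor plate factor, the floor plate signal and a floor plate factor. Of the 22 classes Lmx1a itself averaged highest in erythroid-like cells, at 74.5 CPM, the class where 1 cell held most of the Dkk2 UMIs; Shh and Foxa1 were highest in the floor plate-like class. Dkk3 ran closest to Cgnl1 (0.83), Nectin2 (0.79) and Bmp7 (0.78). Among the 28 pairs of members the highest correlation after Sfrp1 with Sfrp2 was Dkk1 with Dkk3 (0.53), and the lowest was Frzb with Notum (−0.11).

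Shares of cells with a UMI were read after every cell was thinned to 4000 UMIs, which left out 2258 shallower cells, with erythroid-like cells as the class expected to make none. For Sfrp1, 80.2% of pallial progenitor-like cells had a UMI (exact 95% binomial interval 78.2 to 82.1%, 92.2% unthinned), against 4 of 121 erythroid-like cells (3.31%, interval 0.908 to 8.25%). Median depth before thinning was 11837 UMIs in the pallial and 21209 in the erythroid-like class. The share for Sfrp2 was 39.3% in the Aldh1a1-led class (56.0% unthinned) and 45.6% in the Cyp26b1-led progenitors, against 1.65% in erythroid-like cells. Frzb was found in 17.6% of head mesenchyme-like cells (37.3% unthinned), Dkk3 in 16.8% of the Aldh1a1-led class (33.2% unthinned) and Notum in 6.72% of isthmic-like cells (12.4% unthinned). Dkk2 was found in 35.8% of the roof plate or choroid plexus-like class (interval 26.2 to 46.3%, 46.5% unthinned), 16.1% of the floor plate-like class and 0.826% of erythroid-like cells. Dkk1 was found in 3.56% of hypothalamic progenitor-like cells (interval 2.54 to 4.84%, 8.37% unthinned). Frzb, Dkk1, Dkk3, Notum and Wif1 had 0 of 121 erythroid-like cells, which allows a share of up to 2.48%, taken as 3 cells of 121; the exact interval, drawn in the plot of shares, ends at 3.00%. The Dkk1 interval thus starts above the first limit and below the second. The share for Wif1 in neuron-like cells, 1.25% (interval 0.461 to 2.71%, 2.45% unthinned), was below both limits. Any of the 9 genes was found in 83.0% of pallial progenitor-like cells and 82.8% of the Cyp26b1-led progenitors, against 4.46% of macrophage-like and 4.96% of erythroid-like cells. Intervals and limits cover counting error only.

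**Figure D3:**
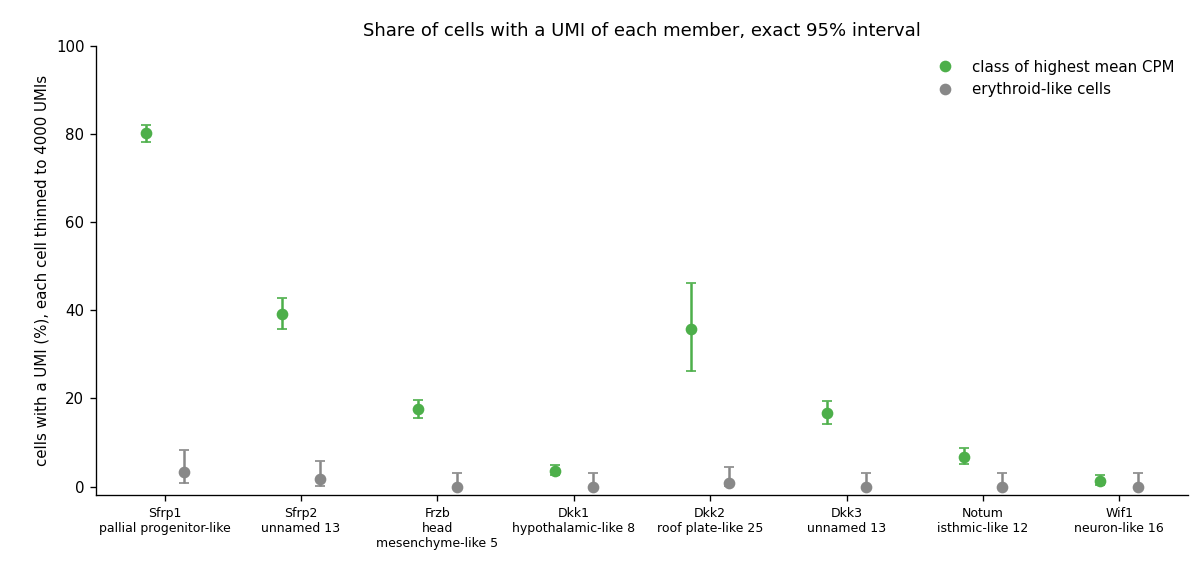
Percent of cells with at least 1 UMI of each member after thinning to 4000 UMIs per cell, in its class of highest mean level (green) and in erythroid-like cells (grey); bars are exact 95% binomial intervals. Sfrp1 reaches 80.2% of pallial progenitor-like cells, and Dkk1 at 3.56% and Wif1 at 1.25% have the lowest shares, with drawn intervals that overlap those of erythroid-like cells.

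Neurons were compared with neural tube progenitors by pooling 867 cells of 3 neuron-like classes and 14384 cells of 10 neural progenitor classes. The neuron pool holds 210 sensory ganglion neuron-like cells, a type that arises from neural crest and placodes and not from the pooled progenitors. In the largest neuron-like class alone, of 572 cells, the mean level was 38.1 CPM for Sfrp1, 7.10 CPM for Sfrp2, 2.73 CPM for Frzb and 4.56 CPM for Wif1. Of the 8 members tested, 5 fell and 1 rose in neurons, where 34.7% of 13477 genes fell and 33.0% rose (edgeR quasi-likelihood test with a library block, Benjamini-Hochberg). Sfrp2 stood at 10.2 and 2.45 CPM in neurons of the Apcdd1+/- libraries and 7.53 and 3.82 CPM in those of the WT libraries, against 92.6, 95.8, 93.4 and 97.5 CPM in progenitors of the same libraries. The groups were far apart, with a log2 difference of −4.11 (SE 0.19, adjusted p = 8.19e-10). In the largest neuron-like class the thinned share of Sfrp2, 2.30% (interval 1.15 to 4.07%), was within the interval of erythroid-like cells (0.201 to 5.84%). This share thus did not set the 2 classes apart. The erythroid-like interval, from 121 cells, is too wide to show that the UMIs in neurons are background. Sfrp1 stood at 43.4, 33.9, 39.2 and 19.5 CPM in neurons, against 245.0, 229.7, 231.1 and 280.0 CPM in progenitors (log2 −2.97, SE 0.15, adjusted p = 1.65e-09).

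Frzb fell as well, at 2.55, 3.26, 2.20 and 1.91 CPM in neurons, against 8.68, 10.99, 10.1 and 11.5 CPM in progenitors (log2 −2.18, SE 0.24, adjusted p = 2.85e-06). Notum passed the test (log2 −2.41, adjusted p = 0.00604) on 3 UMIs in neurons and 273 in progenitors, a ratio of 0.177 with a counting interval of 0.0362 to 0.521. The isthmic-like class held 202 of these 273 UMIs, so the fall mostly sets that class against neurons. Dkk2 had 4.59, 1.22, 0 and 1.53 CPM in neurons, against 5.49, 3.91, 6.73 and 5.84 CPM in progenitors, and the groups overlapped. Its difference (log2 −1.89, SE 0.49, adjusted p = 0.00392) was lost at the finer clustering (−0.01, adjusted p = 0.992) and with cells gated 1 by 1 on markers (−0.78, adjusted p = 0.0541). Hypothalamic progenitor-like cells held 647 of the 911 Dkk2 UMIs of the pooled progenitors. Wif1 rose: it stood at 4.59, 0.408, 5.02 and 3.05 CPM in neurons, against 0.601, 0.682, 0.727 and 0.815 CPM in progenitors (log2 2.07, SE 0.47, adjusted p = 0.00154). Apcdd1+/- library 2 did not share that direction, and marker gates gave 0.92 (adjusted p = 0.0531). Dkk1 (log2 −0.49, adjusted p = 0.452) and Dkk3 (−0.42, adjusted p = 0.221) did not pass, and both turned sign with marker gates, to 0.80 (adjusted p = 0.0361) and 0.11.

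**Figure D4:**
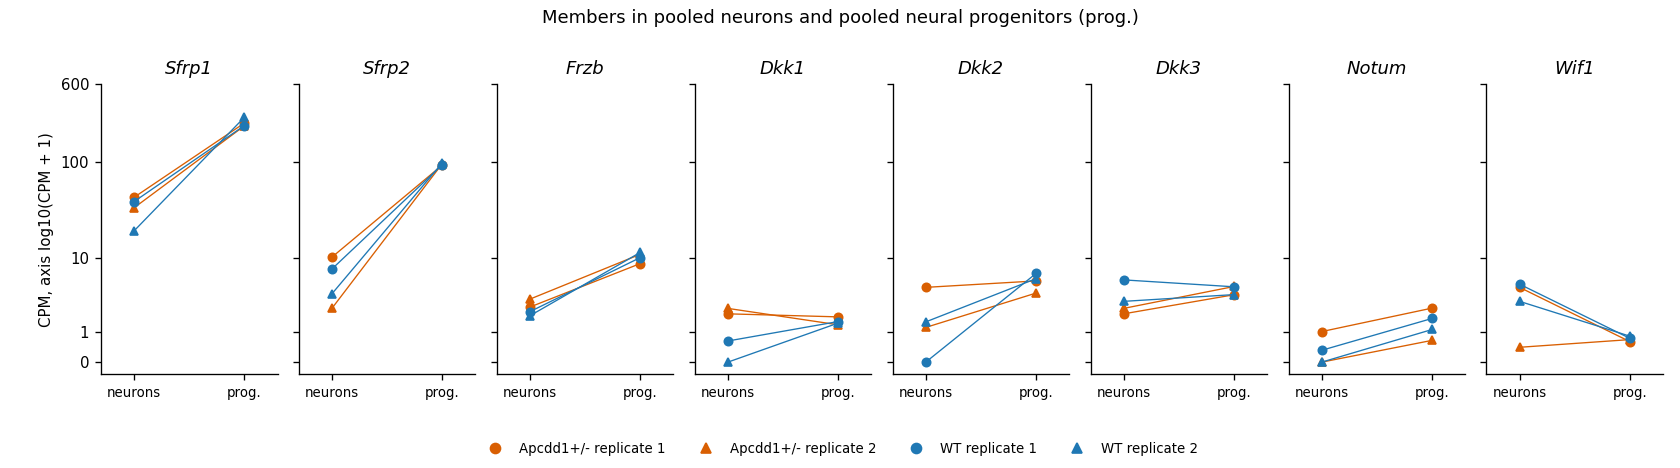
CPM (vertical axis log10(CPM + 1), ticks in CPM) of 8 members in pooled neurons (left of each panel) and pooled neural progenitors (right), 1 line per library, Apcdd1+/- orange and WT blue. Sfrp1 and Sfrp2 are lower in neurons in all 4 libraries, while Wif1 is higher in 3 of 4.

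Other parts of the pathway were read from lists of genes chosen by role. Their counts stand beside all 13477 genes, of which 33.0% rose and 34.7% fell in neurons. Of 11 other extracellular or membrane inhibitors tested, 2 rose and 4 fell in neurons, with a median log2 difference of −0.70, against −2.03 over the 8 members and −0.04 over all genes. Those that rose were Dkkl1 (4.08), a secreted relative of the Dkk proteins, and Draxin (3.20), a guidance protein that also inhibits Wnt signalling; Dkkl1 was picked after its value was seen. Igfbp4, a growth-factor binding protein that also inhibits the Wnt receptors, fell (−0.70), and Apcdd1 did not pass (0.14, adjusted p = 0.351). Of 10 Wnt ligands, 1 rose and 9 fell (median −3.00), among them Wnt7b (−5.05), Wnt8b (−3.84) and Wnt5a (−1.50). Of 18 receptors and co-receptors, 1 rose and 13 fell (median −1.13), with Gpc3 at −2.11, Fzd2 at −1.72 and Fzd3 at 0.05, the last not past the test. Of 7 agonists and secretion factors 1 rose and 6 fell. Porcn, the enzyme that attaches the lipid to Wnts, rose (1.33) and is named because it was the one that did. Those that fell included Wls (−1.85), the carrier that Wnts need to leave the cell, Rspo3 (−3.71) and Rspo1 (−4.08). Of 12 Tcf or Lef factors and targets 3 rose and 9 fell, with Tcf7l2 at 0.52, Tcf7l1 at −2.96 and Ccnd1 at −2.92. These counts, beside the 5 of 8 members that fell, describe lists chosen with earlier results of these data known.

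The last question was whether the genotype labels differ in the members. In sums over all cells, a change in the number of cells of a class and one in the level per cell cannot be told apart. No member was called: 0 of 8 passed edgeR's quasi-likelihood test with Benjamini-Hochberg adjustment over 15966 genes, 0 of 8 had an unadjusted p under 0.05, and DESeq2 called 0 of 8. Over all genes 0.0% were called, with 188 at an unadjusted p under 0.05 and 3 called by DESeq2. Sfrp1 stood at 185.8 and 173.3 CPM in the Apcdd1+/- libraries, against 167.5 and 202.5 CPM in the WT libraries, overlapping, with a log2 difference of 0.01 (SE 0.14, 95% interval −0.31 to 0.33). Sfrp2 stood at 75.8 and 73.7 CPM, against 70.6 and 74.1 CPM in WT (log2 0.09, interval −0.20 to 0.39). These intervals, the narrowest among the members with that of Frzb, show the precision that 2 libraries per label gave.

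Dkk1 was at 3.35 and 2.61 CPM in the Apcdd1+/- libraries, against 2.17 and 2.56 CPM in the WT libraries; the Apcdd1+/- values lay above, by a log2 of 0.39 (SE 0.24, interval −0.16 to 0.95). Frzb at 14.1 and 14.8 CPM lay below the 15.8 and 15.5 CPM of WT (log2 −0.07), and Dkk3 at 10.3 and 10.0 CPM below 12.8 and 12.01 CPM (−0.25). Wif1 was at 0.799 and 0.961 CPM, against 1.17 and 0.963 CPM in WT (−0.25), so that a library of each label had nearly the same value. None of these passed, with every adjusted p at 1.00. Dkk2 at 10.3 and 9.61 CPM, against 9.21 and 15.4 CPM in WT (−0.24), and Notum at 1.83 and 0.566 CPM, against 1.23 and 0.854 CPM (0.27, interval −0.97 to 1.503), overlapped. In pooled neural progenitors the members ranged from −0.38 (Dkk2, SE 0.23) to 0.20 (Notum), again with 0 of 8 called, where 0.0% of 14483 genes were called, 200 had an unadjusted p under 0.05 and DESeq2 called 0. None of the pathway lists had a gene called in either comparison. The median log2 difference in all cells was −0.03 over the members and 0.01 over all genes. In pooled progenitors it was −0.02 over the members and −0.01 over all genes. With 2 libraries per label an exact permutation test of a single gene cannot go below p = 0.333. The WT libraries were the deeper ones per cell, and the part of depth in these differences was not tested.

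**Figure D5:**
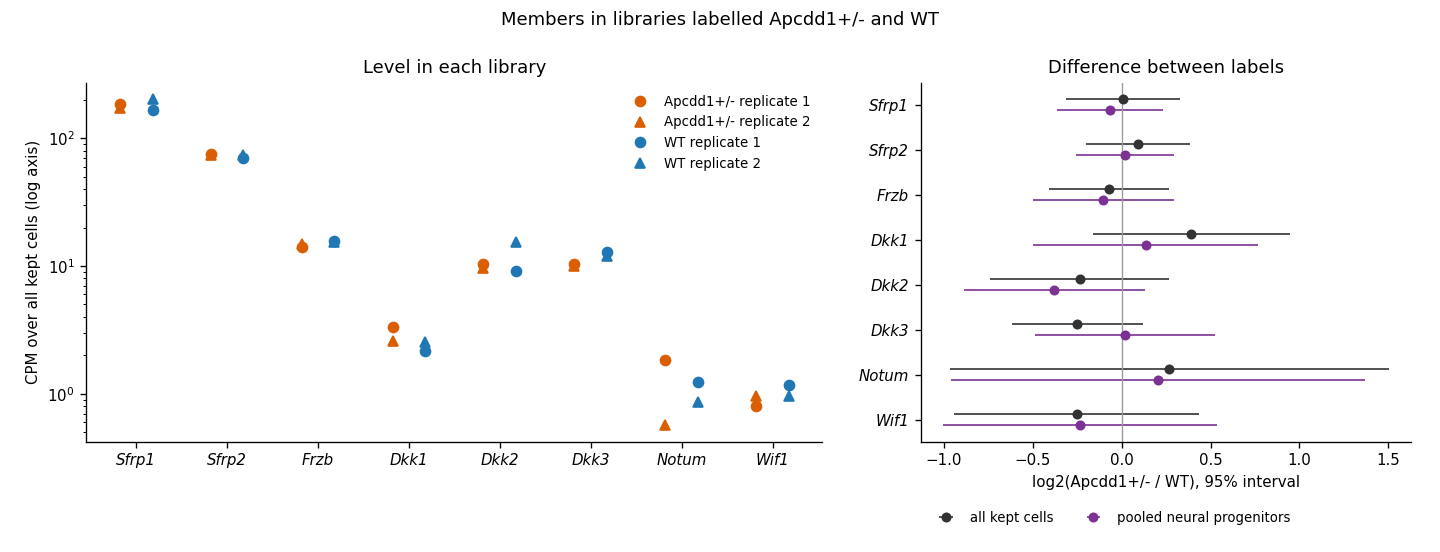
Left, CPM over all kept cells (log axis) of 8 members in each Apcdd1+/- library (orange) and WT library (blue). Right, log2(Apcdd1+/- / WT) with 95% intervals in all kept cells and in pooled neural progenitors; every interval spans 0.

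Class by class, 0 of 80 pairs of a member and a class with at least 50 cells per library were called between labels (edgeR quasi-likelihood test), where 0.000945% of 211671 pairs over all genes were. An unadjusted p under 0.05 was found for 6 of the 80 (7.5%), against 2.43% over all genes, and DESeq2 called 0. Of these 6, Dkk3 gave 3 and in both directions. Its log2 difference was 0.91 in the floor plate-like class, −1.01 in prethalamic progenitor-like cells and −0.59 in surface or oral ectoderm-like cells. These values leaned on single libraries: the floor plate value was 0.56 without Apcdd1+/- library 1, and without WT library 1 the prethalamic value was −0.31 and the ectoderm value −0.26. The ectoderm value was also −0.37 without Apcdd1+/- library 1 and −0.29 without the cells in the top 5% of UMIs. Sfrp1 differed by −0.50 in the floor plate-like class, and by −0.66 to −0.35 with each library left out in turn. Sfrp2 was at 18.5 and 11.9 CPM in an unnamed class led by Eomes and Dlx1 in the Apcdd1+/- libraries, against 5.96 and 6.79 CPM in the WT libraries (log2 1.32). These Sfrp2 levels rest on 36, 14, 10 and 6 UMIs. The Sfrp2 difference was 0.92 without Apcdd1+/- library 1 and 1.58 without Apcdd1+/- library 2. Dkk1 was at 20.1 and 8.54 CPM in head mesenchyme-like cells of the Apcdd1+/- libraries, against 6.36 and 7.06 CPM in WT (log2 1.15, SE 0.39, adjusted p = 1.00).

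The Dkk1 difference in head mesenchyme-like cells rested on Apcdd1+/- library 1, since it was 1.62 (adjusted p = 0.000426) without Apcdd1+/- library 2 and 0.32 (adjusted p = 0.9993) without Apcdd1+/- library 1. Frzb in the Msx3-led progenitors behaved alike, at −2.13 (adjusted p = 0.0135) without Apcdd1+/- library 2, −0.01 without Apcdd1+/- library 1 and −0.64 with all 4; a lone library is there assumed to vary like the WT ones. Among the 61 pairs of a member and a class at 10 CPM or more, the Apcdd1+/- libraries lay wholly above the WT libraries in 9 (14.8%) and wholly below in 8 (13.1%), against 12.3% and 15.2% of 168175 such pairs over all genes. The members' share of separated pairs was thus near the background in both directions.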

How the data were processed

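Droplet libraries (DNBelab C kit, MGI) were sequenced on an MGISEQ-2000, per the labels' protocols. The deposited matrices hold raw UMI counts per gene and cell; their headers name PISA 0.12 as the writer. The submitters' processing notes name mm10 and Scanpy 1.9.1 but give them no role; aligner and annotation: not given in the sources used here. From these counts, cells with at least 500 genes and under 10% mitochondrial UMIs were kept, normalized and clustered (scanpy 1.11.5, Leiden resolution 1, leidenalg 0.10.2) without the members, Apcdd1 and sex-linked, mitochondrial, ribosomal and haemoglobin genes. UMI counts were summed per class and library and tested with edgeR 4.0.16 in R 4.3.3 (TMM scaling, filterByExpr, quasi-likelihood test, Benjamini-Hochberg threshold 0.05); the steps were tested on simulated data. Alternatives were DESeq2 1.42.0, other scaling, filters and clusterings, a replicate block, and each library left out. Nothing says that libraries came from separate embryos or litters, so p-values measure only the spread between these libraries. Chi-square per degree of freedom between libraries of 1 label was 89.3 for Apcdd1+/- and 46.9 for WT, so no library was a duplicate. The members and lists were chosen with earlier results of these data known. All 9 members were named. Of the other lists the rule took genes called between the labels, otherwise the 3 of highest mean level over all cells, and of genes alike in pattern the 3 with the highest correlation for each member that reached 50 CPM in a class. The class neural progenitor-like 1 is plotted by its number, and its leading genes are not reported here.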

Additional observations from a re-analysis of the deposited data

Results flagged for a closer look

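Among 61 groups of 4 libraries (1 member in 1 class, at 10 CPM or more), 5 held a library far from the other 3 by Dixon's criterion, where chance gives about 1 in 20 groups. Dkk1 in head mesenchyme-like cells was 20.1 CPM in Apcdd1+/- library 1, against 6.36 to 8.54 CPM in the others. Dkk3 in frontonasal mesenchyme-like cells was 34.0 CPM in WT library 2, with the others at 20.0 to 20.8 CPM. Frzb in the Msx3-led progenitors was 3.52 CPM in Apcdd1+/- library 1, with the others at 15.9 to 16.4 CPM. Sfrp1 in prethalamic progenitor-like cells was 178 CPM in Apcdd1+/- library 2, with the others at 226 to 235 CPM. Sfrp2 in the Cyp26b1-led progenitors was 193 CPM in Apcdd1+/- library 1, with the others at 230 to 237 CPM.

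For some members both Apcdd1+/- libraries lay above both WT libraries in some classes and below them in others. None of these pairs of a member and a class was called between the labels, the differences between classes were not tested, and such separation was about as common over all genes (14.8% of the members' pairs above and 13.1% below, against 12.3% and 15.2%). For Sfrp1 the log2 difference was 0.0489 in frontonasal mesenchyme-like and 0.19 in surface or oral ectoderm-like cells, and −0.50 in the floor plate-like class. For Sfrp2 it was 0.33 in frontonasal mesenchyme-like, 0.25 in isthmic-like and 0.20 in prethalamic progenitor-like cells and 1.32 in the Eomes-led class, and −0.35 in the Barx1-led class. For Frzb it was 0.30 in hypothalamic progenitor-like cells, and −0.64 in the Msx3-led progenitors, −0.25 in progenitors led by Rspo3 and Wnt8b and −0.40 in thalamic or pretectal progenitor-like cells. For Dkk3 it was 0.91 in the floor plate-like class, and −0.40 in frontonasal mesenchyme-like cells, −0.59 in surface or oral ectoderm-like cells and −0.41 in the Aldh1a1-led class.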

How the results depend on the processing

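Of 412 values recomputed under an alternative, 365 stayed the same by the rule for their kind. A tested difference had to keep its direction and its side of the threshold. A count had to stay within a set fold of its main value, and a share of cells within its main interval. Among the 365 were 102 of 103 for a member in its highest class and 82 of 88 for neurons against progenitors. With 2 libraries per label the deviations from the label mean mirror each other, so both same-numbered pairs give the same correlation, 0.183. This single value does not show that the numbers pair the libraries. With the replicate block 5 genes were called between labels in all cells and 2 in pooled progenitors, where 0 were without it; DESeq2 called 3 in all cells, and no filter on low counts 3 and 12. Leaving out 1 library gave 0 to 222 genes in all cells (109 without Apcdd1+/- library 1, 222 without Apcdd1+/- library 2) and 0 to 165 in pooled progenitors (69 and 165 without the same libraries, 2 without WT library 2), and 0 to 2 pairs of a member and a class. No member was among those called in all cells or pooled progenitors under any of these settings.

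With each library left out in turn, the log2 difference between the labels in all cells turned sign for Sfrp1 (−0.0815 to 0.0819), Frzb (−0.172 to 0.0171), Dkk2 (−0.507 to 0.0712) and Notum (−0.896 to 0.849), and Sfrp1 was −0.0020 without the cells in the top 5% of UMIs. It kept its sign but moved for Sfrp2 (0.0333 to 0.138), Dkk1 (0.153 to 0.577), Dkk3 (−0.382 to −0.127) and Wif1 (−0.461 to −0.0227). In pooled progenitors it turned for Sfrp1 (−0.141 to 0.0216), Sfrp2 (−0.0051 to 0.0464), Frzb (−0.262 to 0.0472), Dkk1 (−0.130 to 0.330), Dkk3 (−0.172 to 0.263) and Notum (−1.14 to 0.806), and Dkk3 was −0.0398 at Leiden resolution 2. In neurons Dkk1 turned to 0.80 with marker gates and Dkk3 to 0.0551 at resolution 2 and 0.11 with marker gates. Wif1 turned to −3.38 at resolution 2 in the finer class that took the largest single part of its neuron-like class. The cause was not tested.

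Depth sets the shares of cells. Unthinned and thinned to 2000 UMIs they were 92.2% and 59.5% for Sfrp1, 56.0% and 26.2% for Sfrp2, 37.3% and 10.6% for Frzb, 33.2% and 11.5% for Dkk3, and 12.4% and 3.78% for Notum. Dkk1 was 8.37% and Dkk2 46.5% unthinned, and Wif1 0.183% at 2000 UMIs.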
